A study of Mus musculus with 6 samples.

Results

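The genes described here are 40 genes of muscle fibroblasts and of the non-collagen extracellular matrix, chosen by symbol from the 20632 genes of the deposited table, and all 40 were found there. They are surface markers of fibro-adipogenic progenitors (FAPs) and related fibroblasts (6 genes), small leucine-rich proteoglycans (6 genes), elastic fibre proteins and their cross-linking enzymes (10 genes), adhesive and matricellular proteins (8 genes), proteases with their inhibitors and a procollagen enhancer (6 genes), and other proteins that fibroblasts secrete (4 genes). Their RNA was measured in whole hind limb muscles of 3 Baf155WT and 3 Baf155ΔMF mice, all unexercised males aged 3 months on a C57BL/6 background, with 1 sequencing library for each mouse. Baf155ΔMF mice (labelled Baf155 -/-) carried *MCK*-Cre and 2 floxed alleles of *Baf155*, whereas Baf155WT mice (labelled wild type) carried the floxed alleles without Cre. The muscle creatine kinase (MCK) promoter drives Cre in skeletal and cardiac muscle cells, and fibroblasts are not among the cells it is known to target. The comparison therefore asks whether RNA of fibroblasts and their matrix differed in muscle whose fibres had lost Baf155, a core subunit of the SWI/SNF chromatin remodeling complex.

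FAPs are the resident mesenchymal cells of skeletal muscle and are recognised by PDGFRα. They lie between the fibres, secrete most of the matrix that surrounds them, support satellite cells during repair and can become adipocytes or matrix-depositing fibroblasts in damaged muscle. A subset marked by *Dpp4* and *Pi16* is found in the connective tissue around vessels and muscle bundles of many organs. All 8 markers of FAPs read here (*Pdgfra*, *Cd34*, *Ly6a*, *Dpp4*, *Cd248*, *Pi16*, *Dcn* and *Lum*) were measured in every mouse, at 7.58 CPM or more.

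The total per mouse was 10601293 to 12469335 counts in Baf155WT mice and 8426022 to 10003421 counts in Baf155ΔMF mice, and levels are given as CPM, which are counts relative to the library total after TMM normalization (a scaling that adjusts for differences in library composition). *Smarcc1*, which encodes Baf155, stood at 23.4, 19.5 and 16.9 CPM in Baf155WT mice and at 7.05, 6.54 and 7.72 CPM in Baf155ΔMF mice, with a log2 fold change of -1.49 (SE 0.15) and an adjusted p of 0.00907 (edgeR's quasi-likelihood test with Benjamini-Hochberg adjustment). The sample titles begin with MS13 (1 Baf155WT and 2 Baf155ΔMF mice), MS15 (the other Baf155WT mice) or MS14 (the remaining Baf155ΔMF mouse), and the labels do not say what these prefixes mean. On the first principal component of all genes tested, which held 43.3% of the variance, the MS15 mice lay at 25.0 and 22.5 and the MS13 Baf155WT mouse lay at -13.4, close to the MS13 Baf155ΔMF mice at -17.1 and -15.4. Outside MS13, prefix and genotype cannot be told apart. Values below are listed with the MS13 mouse first and the MS15 mice after it for Baf155WT, and with the MS13 mice first and the MS14 mouse last for Baf155ΔMF. A log2 fold change is Baf155ΔMF over Baf155WT.

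Most fibroblast and matrix genes had lower RNA levels in Baf155ΔMF muscle, but the differences were small and none passed the adjusted limit. Of the 39 genes with enough counts to be tested, 32 had a log2 fold change below zero and 7 above, with a median of -0.26 where the median of all 12116 genes tested was -0.00095. An adjusted p under 0.05 was reached by 0 of the 39, with values from 0.601 to 0.988, and by 0.0248% of all genes. An unadjusted p under 0.05 with a lower level was found in 11 of the 39 (28.2%), against 4.6% of all genes tested, and with a higher level in 0 of the 39, against 3.35% of all genes. The levels of all 3 Baf155ΔMF mice were below those of all 3 Baf155WT mice in 2 genes, *Dpp4* and *Mfap5*, and above them in 0 genes, where 5.57% and 5.2% of all genes were so separated. A count of 2 in 39 is near the share of all genes. In RNA of a whole muscle, fewer cells of a type and less RNA per cell cannot be told apart.

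**Figure D1:**
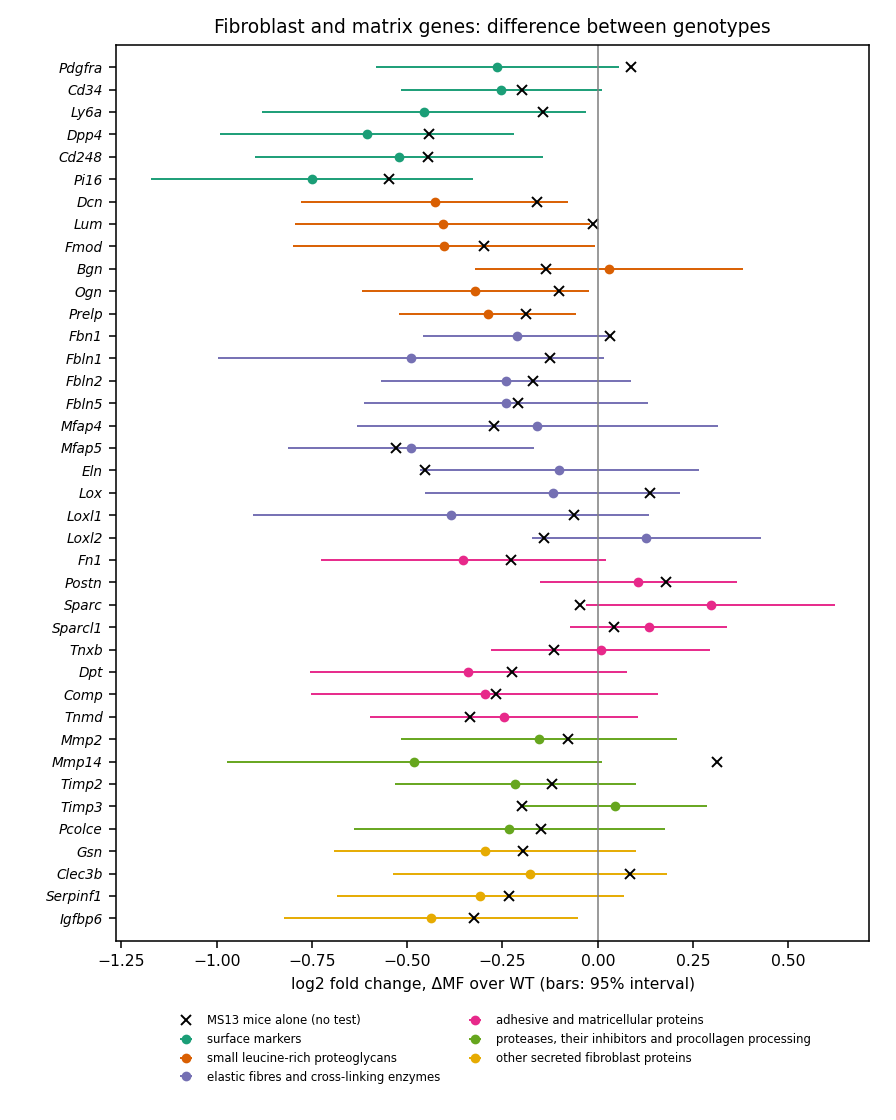
Log2 fold change of each of the 39 genes tested (x axis, Baf155ΔMF over Baf155WT; y axis, genes coloured by role), as fitted by edgeR with its 95% interval, and the ratio between the MS13 mice alone as a cross with no test. The interval lies wholly below zero for 11 genes, among them *Pi16*, *Dpp4* and *Cd248*, and wholly above zero for no gene, and most crosses lie nearer to zero than the fitted value.

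The mice of a genotype differed from each other about as much as the genotypes did. The mean log2 CPM over the 39 genes was 5.68, 6.05 and 5.95 in Baf155WT mice and 5.55, 5.48 and 5.91 in Baf155ΔMF mice, or 5.89 ± 0.194 and 5.64 ± 0.229 (mean ± SD, n = 3 mice per genotype). The MS15 mice stood highest, the MS13 Baf155ΔMF mice lowest, and the MS14 Baf155ΔMF mouse lay above the MS13 Baf155WT mouse, so the genotypes overlapped. Among the 39 genes, 31 were lower in the MS13 Baf155WT mouse than in both MS15 mice, an order that 40.1% of all genes tested had. The MS14 mouse exceeded both MS13 Baf155ΔMF mice in 35 genes, an order found in 37.8% of all genes. An MS15 mouse had the highest of the 6 values in 30 genes, and an MS13 Baf155ΔMF mouse had the lowest in 30 genes.

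Between the MS13 mice alone the difference was smaller and pointed the same way. The median log2 ratio of the MS13 Baf155ΔMF mice to the MS13 Baf155WT mouse was -0.16 over the 39 genes, against 0.0033 over all genes, and both Baf155ΔMF mice were below the Baf155WT mouse in 28 genes, which held for 33.6% of all genes. These ratios rest on 1 Baf155WT mouse and carry no test. Within Baf155WT the MS15 mice exceeded the MS13 mouse by a median of 0.42 on the log2 scale, and within Baf155ΔMF the MS14 mouse exceeded the MS13 mice by 0.44. Both medians are larger in size than the difference between genotypes.

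The number of genes below the unadjusted limit depended on which mouse was left out. It was 26 without the MS13 Baf155WT mouse (11.8% of all genes were then lower at this limit) and 24 without the MS14 Baf155ΔMF mouse (5.96%). Without an MS15 mouse it was 4 or 5, and without an MS13 Baf155ΔMF mouse it was 4 or 3, with 2.0% to 2.6% of all genes lower. Without the MS13 Baf155WT mouse, 16 of the genes also had an adjusted p under 0.05 in edgeR, when 7.77% of all genes had one. With the prefix as a covariate, the genotype term rests on the MS13 mice, with 1 Baf155WT mouse, because MS14 and MS15 each hold a single genotype. The fit thus repeats the comparison of the MS13 mice, with a median log2 fold change of -0.16 and 32 of 39 genes below zero. When both MS15 mice were left out, a choice made after the data were seen, 1 Baf155WT mouse remained. The median log2 fold change was then 0.0018, with 20 of 40 genes below zero. That fit kept the MS14 Baf155ΔMF mouse, so it is not the comparison of the MS13 mice alone.

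**Figure D2:**
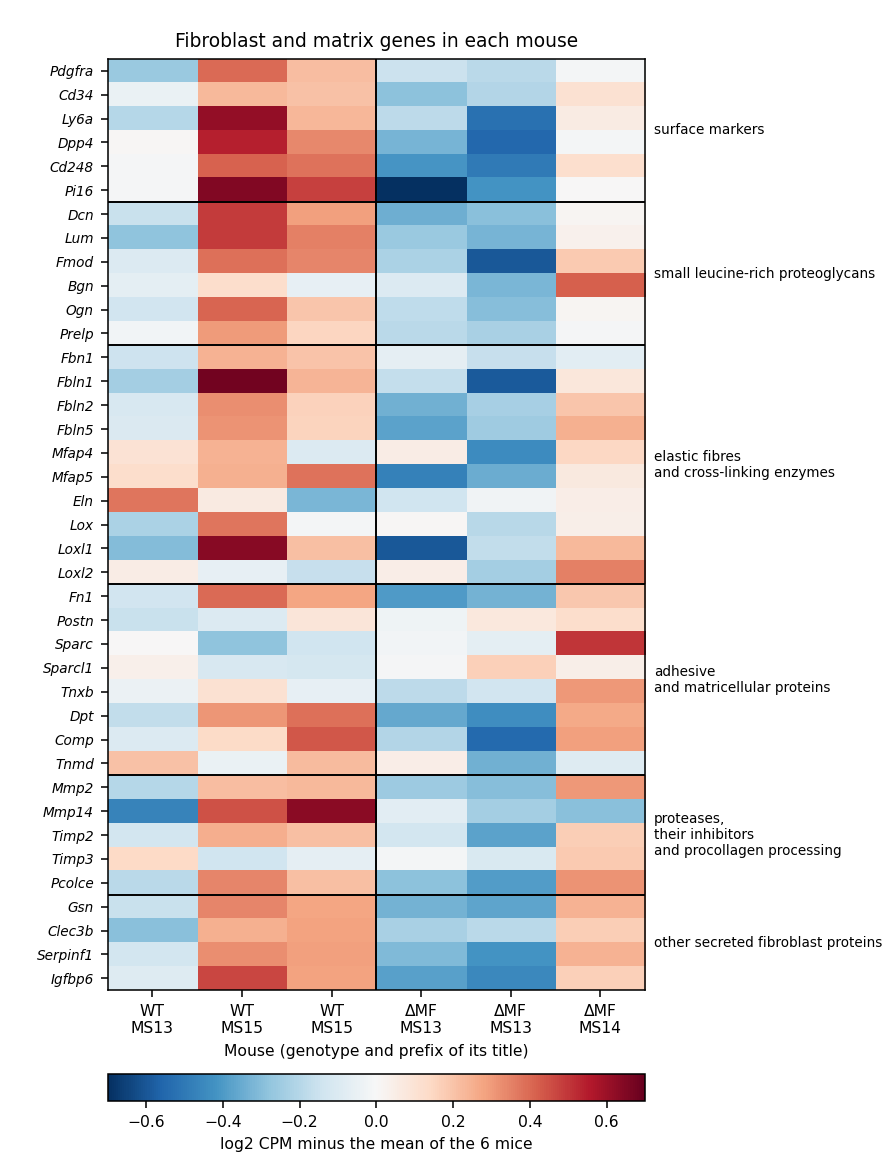
Level of each of the 39 genes in each mouse (columns, with genotype and title prefix) as log2 CPM minus the mean of the 6 mice (colour), with genes in rows grouped by role. The MS15 Baf155WT columns are mostly red and the MS13 Baf155ΔMF columns mostly blue, while the MS13 Baf155WT and MS14 Baf155ΔMF columns lie between them.

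Markers of other cells were read beside these genes, because a whole muscle also holds them, and their part in the results was not tested. Counts in these lists stand beside 4.6% of all genes lower and 3.35% higher at the unadjusted limit. All 9 macrophage markers tested were lower at an unadjusted p under 0.05 in Baf155ΔMF muscle (median log2 fold change -0.93), and the sum of all 10 was 135 to 398.5 CPM in Baf155WT and 122 to 209 CPM in Baf155ΔMF mice. Examples are *Cd163*, a haemoglobin scavenger receptor, with a log2 fold change of -0.81 (SE 0.21), *C1qb*, a complement subunit, with -1.16 (SE 0.38), and *Mrc1*, the mannose receptor, with -0.84 (SE 0.30). Their median log2 ratio of MS15 to MS13 Baf155WT mice was 1.39, and between the MS13 mice of the 2 genotypes it was -0.15. Macrophage markers and the fibroblast and matrix genes thus had the same order of mice.

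Red blood cell genes were lower in 3 of 5 tested at this limit (*Hbb-bt*, *Alas2* and *Hbb-bs*, median of the list -0.70). Their sums were 622 to 1227 CPM in Baf155WT mice and 370.5 to 805 CPM in Baf155ΔMF mice. Between the MS13 mice of the 2 genotypes the median of this list was -0.83, with 5 of 5 below zero. It was 0.37 between the MS15 and MS13 Baf155WT mice. Adipocyte genes were lower in 2 of 9 (*Adipoq*, the adipokine adiponectin, with -0.86 and SE 0.23, and *Retn*, resistin, with -1.27 and SE 0.39). A log2 fold change above zero was found in 3 of the 9, and sums overlapped at 576 to 618 CPM and 544 to 621 CPM. Between the MS13 mice of the 2 genotypes *Adipoq* was at -0.20, *Retn* at -0.32 and the median of the list at -0.04. Between the MS15 and MS13 Baf155WT mice the median was 0.59. Of the endothelial genes, 3 of 10 were higher at this limit (*Kdr*, a VEGF receptor, with 0.41 and SE 0.12, *Pecam1* and *Egfl7*) with sums of 324 to 432 CPM and 429 to 451 CPM. Their median log2 ratio was -0.04 between the MS13 mice of the 2 genotypes, with 6 of 10 below zero, and -0.47 between the MS15 and MS13 Baf155WT mice. Of the pericyte and smooth muscle genes 2 of 9 were higher (*Rgs5* and *Kcnj8*), with sums of 1005 to 1289 CPM and 1199 to 1346 CPM. Between the MS13 mice of the 2 genotypes the median of this list was -0.09, with 6 of 9 below zero. *Rgs5* and *Kcnj8* were each at 0.18 there. Between the MS15 and MS13 Baf155WT mice the median of this list was -0.26. None of the markers in these lists was at 0 in all 6 mice.

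**Figure D3:**
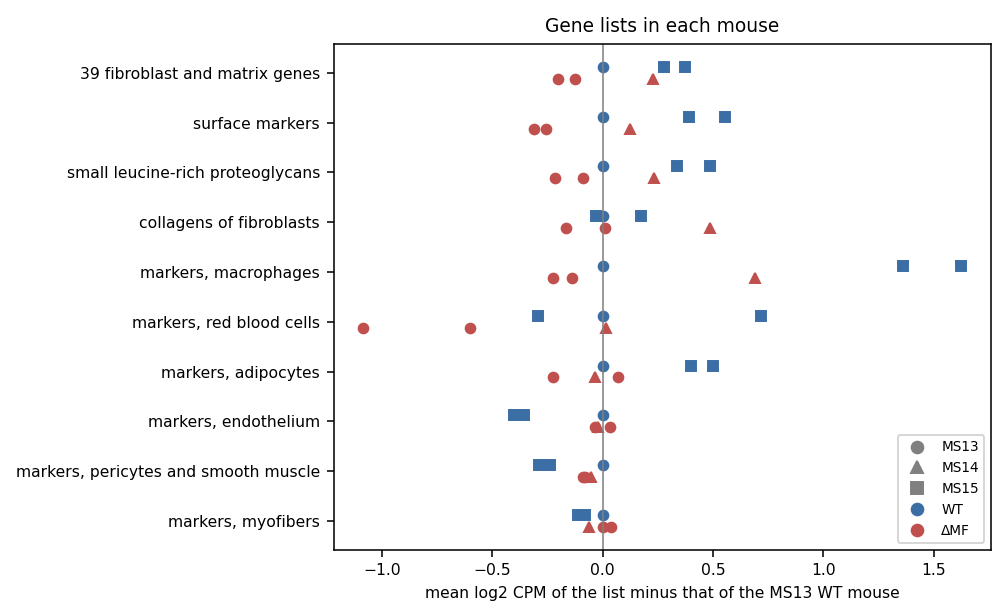
Mean log2 CPM of each gene list in each mouse minus that of the MS13 Baf155WT mouse (x axis, log2 units; y axis, lists; colour, genotype; symbol, title prefix). For the 39 genes, their surface markers and proteoglycans and the macrophage markers, the MS15 Baf155WT mice lie to the right, the MS14 Baf155ΔMF mouse next and the MS13 Baf155ΔMF mice to the left of zero, while the MS15 mice lie to the left in the endothelial list.

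The surface markers had the lowest median fold change of the 6 roles. Of the 6 genes, 4 were lower in Baf155ΔMF muscle at an unadjusted p under 0.05, against 4.6% of all genes tested. These were *Pi16*, *Dpp4*, *Cd248* and *Ly6a*, and the median log2 fold change of the role was -0.49. The median between the MS13 mice alone was -0.32. The count was 6 without the MS13 Baf155WT mouse (11.8% of all genes) and 5 without the MS14 mouse (5.96%). It was 3 without either MS15 mouse and 3 or 2 without either MS13 Baf155ΔMF mouse. In these fits 2% to 2.6% of all genes were lower. Without both MS15 mice the median of the role was -0.16, with 5 of 6 genes below zero. *Dpp4*, *Cd248*, *Pi16* and *Mfap5* also stand in the study's own list of changed genes, which was drawn from the same mice, so their direction here is not independent evidence.

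*Pi16*, which encodes a secreted or membrane-bound peptidase inhibitor of fibroblasts (chr17:29317680-29330593, GRCm38, plus strand), was 27.1, 42.6 and 37.9 CPM in Baf155WT mice and 16.8, 20.4 and 27.2 CPM in Baf155ΔMF mice. The MS14 mouse was level with the MS13 Baf155WT mouse, and the other mice of the genotypes were apart. Its log2 fold change was -0.75 (SE 0.19, 95% interval -1.17 to -0.33, adjusted p = 0.601 in edgeR's quasi-likelihood test with Benjamini-Hochberg adjustment), the lowest of the 39 genes. *Dpp4*, a membrane dipeptidase that marks the perivascular fibroblast subset (chr2:62330073-62412231, minus strand), was 11.2, 16.2 and 14.01 CPM in Baf155WT mice and 8.86, 7.58 and 11.0 CPM in Baf155ΔMF mice. The highest Baf155ΔMF value, in the MS14 mouse, lay just under the lowest Baf155WT value. Its log2 fold change was -0.61 (SE 0.17, interval -0.99 to -0.22, adjusted p = 0.601 in the same test).

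*Cd248*, or endosialin, a collagen- and fibronectin-binding membrane protein of fibroblasts and pericytes (chr19:5068078-5070682, plus strand), was 18.9, 25.4 and 24.8 CPM in Baf155WT mice and 14.3, 13.5 and 20.7 CPM in Baf155ΔMF mice. Only the MS14 mouse reached the range of the Baf155WT mice. The log2 fold change was -0.52 (SE 0.17, adjusted p = 0.601 in edgeR). *Ly6a* encodes Sca-1, which is used to sort FAPs and is also present on endothelial cells (chr15:74994877-74998031, minus strand), and it was 41.9, 73.6 and 56.4 CPM in Baf155WT mice and 42.4, 33.4 and 50.1 CPM in Baf155ΔMF mice. The MS13 Baf155WT mouse lay among the Baf155ΔMF mice, and the log2 fold change was -0.46 (SE 0.19, adjusted p = 0.611 in edgeR). Between the MS13 mice alone the log2 ratios were -0.55 for *Pi16*, -0.44 for *Dpp4*, -0.45 for *Cd248* and -0.14 for *Ly6a*. Values of *Ly6a* were estimates and not whole counts in 2 mice and those of *Cd248* in 1 mouse, as happens where reads match more than 1 place.

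*Pdgfra*, the receptor that defines FAPs (chr5:75152292-75198215, plus strand), was 83.4, 131 and 116 CPM in Baf155WT mice and 89.7, 87.4 and 98.6 CPM in Baf155ΔMF mice. The MS13 Baf155WT mouse had the lowest of the 6 values, and the log2 fold change of -0.26 (SE 0.14, adjusted p = 0.633 in edgeR) turned to 0.09 between the MS13 mice alone. *Cd34*, a sialomucin of FAPs, endothelial cells and satellite cells with the highest CPM of the role before correction for length (chr1:194938819-194961279, plus strand), was 103, 124 and 122 CPM in Baf155WT mice and 87.0, 92.1 and 114 CPM in Baf155ΔMF mice. Again only the MS14 mouse overlapped with the Baf155WT mice. Its log2 fold change was -0.25 (SE 0.12, adjusted p = 0.622 in edgeR).

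**Figure D4:**
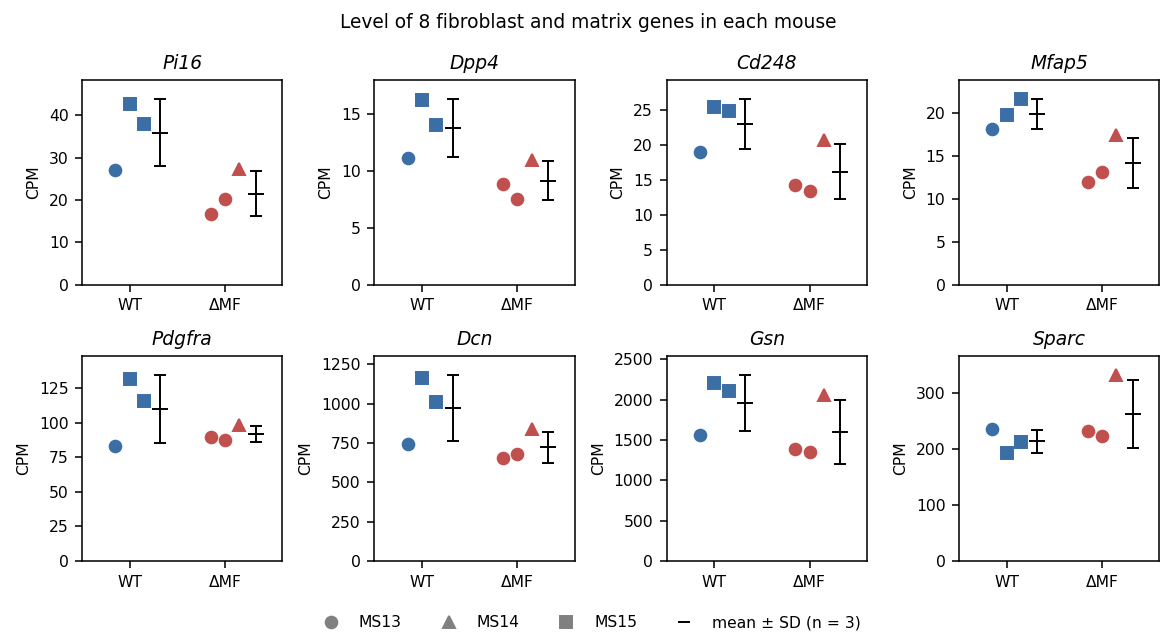
Level of 8 fibroblast and matrix genes in each mouse (y axis, TMM-normalized CPM from 0; x axis, genotype; symbol, title prefix), with the mean ± SD of 3 mice beside the points. For *Pi16*, *Dpp4*, *Cd248* and *Mfap5* the MS13 Baf155ΔMF mice lie below every Baf155WT mouse, for *Pdgfra* the MS13 Baf155WT mouse is the lowest of the 6, and for *Sparc* the MS14 Baf155ΔMF mouse stands apart at 331.5 CPM.

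Small leucine-rich proteoglycans coat collagen fibrils and set their diameter and spacing. At an unadjusted p under 0.05, 5 of the 6 were lower in Baf155ΔMF muscle, and the median log2 fold change was -0.36, against -0.15 between the MS13 mice alone. The count stayed at 5 without the MS13 Baf155WT mouse (11.8% of all genes) or the MS14 mouse (5.96%). It was 1 without the second MS15 mouse listed and 0 without the other MS15 mouse or without either MS13 Baf155ΔMF mouse. In these fits 2% to 2.6% of all genes were lower. The median was -0.15 with the prefix as a covariate and -0.03 without both MS15 mice. *Dcn*, decorin, the highest of the 6 with or without correction for length (chr10:97479609-97518143, plus strand), was 744, 1161 and 1011 CPM in Baf155WT mice and 654, 677.5 and 836 CPM in Baf155ΔMF mice. The MS14 mouse lay above the MS13 Baf155WT mouse and below the MS15 mice. The log2 fold change of *Dcn* was -0.43 (SE 0.16, adjusted p = 0.601 in edgeR).

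*Lum*, lumican, lies on the same chromosome and strand as *Dcn* (chr10:97565128-97572703) and was 45.4, 77.5 and 70.5 CPM in Baf155WT mice and 46.0, 44.0 and 56.2 CPM in Baf155ΔMF mice. Its MS13 mice were alike in both genotypes, with a log2 ratio of -0.01, and the log2 fold change over all mice was -0.41 (SE 0.18, adjusted p = 0.611 in edgeR). *Prelp*, a heparin-binding proteoglycan near basement membranes (chr1:133910304-133921414, minus strand), was 62.2, 77.5 and 69.9 CPM in Baf155WT mice and 55.3, 53.8 and 62.7 CPM in Baf155ΔMF mice, with a log2 fold change of -0.29 (SE 0.11, adjusted p = 0.601 in edgeR). The MS13 Baf155WT and MS14 Baf155ΔMF mice were almost level for this gene, and the others were apart.

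*Ogn*, osteoglycin (chr13:49608046-49624501, plus strand), was 114, 166 and 143 CPM in Baf155WT mice and 110.5, 102 and 126 CPM in Baf155ΔMF mice, with a log2 fold change of -0.32 (SE 0.14, adjusted p = 0.611 in edgeR). *Fmod*, fibromodulin, which is abundant in tendon (chr1:134037254-134048277, plus strand), was 98.5, 137 and 133 CPM in Baf155WT mice and 90.4, 69.9 and 119 CPM in Baf155ΔMF mice, with a log2 fold change of -0.40 (SE 0.18, adjusted p = 0.622 in edgeR). For both genes the MS14 mouse stood above the MS13 Baf155WT mouse and below the MS15 mice. The remaining proteoglycan was *Bgn*, biglycan, at 52.8, 60.1 and 53.2 CPM in Baf155WT mice and 51.8, 44.3 and 73.9 CPM in Baf155ΔMF mice. The MS14 mouse was the highest of all for *Bgn*, which had a log2 fold change of 0.03 (SE 0.16) and estimates that were not whole in 4 mice.

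The promoters of lower genes were read for short motifs. Of the 40 genes, 25 had an entry in RefSeq's table of GRCm38.p6 promoters, and the 250 bases before each RefSeq start were searched on both strands for TATAAA (the TATA box), TTCNNNGAA (the STAT element), ACGTG (the core of the HIF element), TGANTCA (the AP-1 element) and GGAATG (the TEAD element). The sequences of *Pi16*, the gene with the lowest fold change, and of the 3 lower genes that held a motif are shown 5′ to 3′ on the strand of the gene, with matches in capitals on whichever strand they lie. The RefSeq start of *Pi16* lies inside the GENCODE gene given above, whose annotated start is further upstream.

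Pi16, chr17:29318632-29318881, plus strand: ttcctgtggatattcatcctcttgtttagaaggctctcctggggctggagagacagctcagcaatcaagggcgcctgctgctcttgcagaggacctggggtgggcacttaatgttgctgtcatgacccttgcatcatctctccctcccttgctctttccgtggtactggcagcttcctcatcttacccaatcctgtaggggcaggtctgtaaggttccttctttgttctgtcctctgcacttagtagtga
Dpp4, chr2:62412232-62412481, minus strand: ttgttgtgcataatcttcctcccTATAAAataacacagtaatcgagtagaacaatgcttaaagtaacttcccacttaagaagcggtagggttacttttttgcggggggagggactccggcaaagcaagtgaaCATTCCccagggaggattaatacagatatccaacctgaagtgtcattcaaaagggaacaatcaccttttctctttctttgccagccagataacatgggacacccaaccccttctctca
Ogn, chr13:49607765-49608014, plus strand: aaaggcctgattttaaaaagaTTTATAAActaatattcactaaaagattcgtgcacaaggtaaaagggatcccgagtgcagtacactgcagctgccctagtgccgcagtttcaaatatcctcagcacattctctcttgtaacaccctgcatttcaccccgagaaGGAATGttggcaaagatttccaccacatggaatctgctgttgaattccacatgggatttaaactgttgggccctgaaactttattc
Igfbp6, chr15:102143936-102144185, plus strand: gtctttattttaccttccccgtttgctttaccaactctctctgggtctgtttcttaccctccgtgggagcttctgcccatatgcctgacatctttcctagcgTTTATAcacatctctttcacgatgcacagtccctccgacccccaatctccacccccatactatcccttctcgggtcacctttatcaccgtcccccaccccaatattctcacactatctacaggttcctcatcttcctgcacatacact

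*Dpp4* held TATAAA from base -227 to -222 before its start and the reverse complement of GGAATG from -118 to -113. *Ogn* held TATAAA on both strands in overlapping runs from -229 to -222 and GGAATG from -86 to -81, and *Igfbp6* held the reverse complement of TATAAA from -148 to -143. *Pi16* held none of the 5 motifs. Over the 25 promoters, TATAAA was present in 4 (16%, against 14.3% of the promoters of 27025 genes), TTCNNNGAA in 1 (*Dpt*, 4% against 8.13%), ACGTG in 4 (16% against 18.5%), TGANTCA in 1 (*Tnxb*, 4% against 7.82%) and GGAATG in 3 (12% against 14.4%). These shares are a description of letters in short windows and say nothing of whether a factor binds there.

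Elastic fibres are made of elastin, which lysyl oxidases cross-link, on a scaffold of fibrillin microfibrils, which fibulins bind. Of these 10 genes, 9 had a log2 fold change below zero, with a median of -0.23 (-0.15 between the MS13 mice). At an unadjusted p under 0.05, 1 was lower in Baf155ΔMF muscle, against 4.6% of all genes tested. This was *Mfap5*, a microfibril-associated glycoprotein (chr6:122505845-122529290, plus strand), at 18.1, 19.7 and 21.6 CPM in Baf155WT mice and 11.96, 13.1 and 17.4 CPM in Baf155ΔMF mice. All Baf155ΔMF mice lay below all Baf155WT mice, by a narrow margin for the MS14 mouse. The log2 fold change was -0.49 (SE 0.15, interval -0.81 to -0.17, adjusted p = 0.601 in edgeR) and was -0.53 between the MS13 mice alone. The count of lower genes in this role was 6 without the MS13 Baf155WT mouse (11.8% of all genes) and 5 without the MS14 mouse (5.96%). It stayed at 1 without any other single mouse, when 2% to 2.6% of all genes were lower.

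*Fbn1*, fibrillin-1, with the highest CPM of the role before correction for length (chr2:125300594-125507993, minus strand), was 224.5, 294 and 286 CPM in Baf155WT mice and 237, 222 and 236 CPM in Baf155ΔMF mice. The Baf155ΔMF mice and the MS13 Baf155WT mouse lay close together below the MS15 mice, and the log2 fold change was -0.21 (SE 0.11, adjusted p = 0.633 in edgeR). The fibulins *Fbln1*, *Fbln2* and *Fbln5* had log2 fold changes of -0.49, -0.24 and -0.24, and the microfibril protein *Mfap4* had -0.16. *Eln*, elastin itself, had -0.10, with 16.1, 13.01 and 9.99 CPM in Baf155WT mice and 11.3, 12.2 and 12.9 CPM in Baf155ΔMF mice. Here the MS13 Baf155WT mouse was the highest, unlike for most of the 39 genes, and the ratio between the MS13 mice was -0.45. The cross-linking enzymes *Lox* and *Loxl1* had -0.12 and -0.39, and *Loxl2* had 0.13, with estimates that were not whole in all 6 mice.

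The adhesive and matricellular proteins, which bind cells to the matrix or modulate that binding, were split evenly, with 4 of 8 below zero, 0 past the unadjusted limit in either direction and a median log2 fold change of -0.12. *Tnxb*, tenascin-X, which had the highest CPM of the role before correction for length (chr17:34670535-34719815, plus strand), was 359, 398 and 355 CPM in Baf155WT mice and 326, 337 and 455 CPM in Baf155ΔMF mice. The MS14 mouse was the highest and the MS13 Baf155ΔMF mice were the lowest, and the log2 fold change was 0.0074 (SE 0.13, interval -0.28 to 0.29, adjusted p = 0.988 in edgeR). *Fn1*, fibronectin, *Dpt*, dermatopontin, *Comp*, a pentameric thrombospondin of tendon, and *Tnmd*, tenomodulin, a tendon membrane protein, had log2 fold changes of -0.35, -0.34, -0.30 and -0.25. *Postn*, periostin, and *Sparcl1*, hevin, had 0.11 and 0.13.

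*Sparc*, osteonectin, a collagen-binding protein that endothelial cells also make, is given in full because it had the highest fold change of the 39 genes, a choice made after its values were seen. It was 234.5, 193 and 213 CPM in Baf155WT mice and 231, 223 and 331.5 CPM in Baf155ΔMF mice (chr11:55394500-55423183, minus strand). The MS13 mice of both genotypes were alike and the MS14 mouse stood apart. The log2 fold change was 0.30 (SE 0.15, interval -0.03 to 0.62, adjusted p = 0.622 in edgeR), and the ratio between the MS13 mice was -0.05.

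Among the proteases and their inhibitors, 5 genes were tested, 0 passed the unadjusted limit and the median log2 fold change was -0.22. *Timp3*, a matrix-bound metalloproteinase inhibitor with the highest CPM of the role before correction for length (chr10:86300372-86349506, plus strand), was 207.5, 171 and 180.2 CPM in Baf155WT mice and 187, 175 and 214 CPM in Baf155ΔMF mice, with a log2 fold change of 0.04 (SE 0.11, adjusted p = 0.919 in edgeR). The genotypes covered nearly the same range. *Mmp2*, a gelatinase, *Timp2*, which inhibits it, and *Pcolce*, which enhances procollagen cleavage, had log2 fold changes of -0.15, -0.22 and -0.23.

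*Mmp14*, a membrane-bound collagenase of fibroblasts and macrophages, was 17.0, 32.1 and 36.4 CPM in Baf155WT mice and 22.3, 19.9 and 19.2 CPM in Baf155ΔMF mice. The MS13 Baf155WT mouse was the lowest of the 6 and the MS15 mice were the highest. The log2 fold change of -0.48 (SE 0.22, interval -0.97 to 0.01) turned to 0.31 between the MS13 mice, and its estimates were not whole in all 6 mice. *Timp1*, an inducible inhibitor, had too few counts to be tested, with 9, 17 and 6 counts in Baf155WT mice and 3, 0 and 10 counts in Baf155ΔMF mice. A limit of 3 counts is between 0.241 and 0.356 CPM in these libraries and covers counting error only.

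The last role holds 4 secreted proteins of fibroblasts, all with a log2 fold change below zero (median -0.30, and -0.21 between the MS13 mice). *Igfbp6*, which binds insulin-like growth factors (chr15:102144362-102149511, plus strand), was 39.1, 57.5 and 50.5 CPM in Baf155WT mice and 31.9, 30.4 and 46.7 CPM in Baf155ΔMF mice, with a log2 fold change of -0.44 (SE 0.18, adjusted p = 0.601 in edgeR). *Gsn*, gelsolin, an actin-severing protein with a secreted form (chr2:35256380-35307892, plus strand), was 1564, 2207 and 2106 CPM in Baf155WT mice and 1383, 1349 and 2058 CPM in Baf155ΔMF mice, with a log2 fold change of -0.30 (SE 0.18, adjusted p = 0.658 in edgeR). In both genes the MS14 mouse lay within the range of the Baf155WT mice and the MS13 Baf155ΔMF mice lay under it. *Serpinf1*, pigment epithelium-derived factor, and *Clec3b*, tetranectin, had log2 fold changes of -0.31 and -0.18. *Gsn* is also made by muscle fibres and smooth muscle, so its level is not that of fibroblasts alone.

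Levels of different genes were compared per kilobase of annotated exon. On this scale *Gsn* was the highest of the 40 genes at 563 CPM per kilobase, followed by *Dcn* at 145, *Sparcl1* at 64.2, *Sparc* at 62.7 and *Ogn* at 49.5, and *Eln* (1.56) and *Timp1* (0.788) were among the lowest. *Dcn* and *Gsn* together made up 43.6% to 49.5% of the summed CPM of the genes in each mouse. That sum was 5121, 6799 and 6367 CPM in Baf155WT mice and 4671, 4585 and 6265 CPM in Baf155ΔMF mice. The 6 mice thus kept the order seen for the mean log2 level.

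Of the collagens that fibroblasts make, none of 11 passed the unadjusted limit in either direction, 9 had a log2 fold change above zero, and the median was 0.06. Between the MS13 mice alone the median was -0.09, with 9 of 11 below zero. *Col1a1*, the main chain of type I collagen, was 242, 157.5 and 232 CPM in Baf155WT mice and 248, 187 and 375.5 CPM in Baf155ΔMF mice, and *Col3a1*, the chain of type III collagen, was 460.2, 427 and 481 CPM and 493, 419 and 781.5 CPM. The MS14 mouse was the highest for both, as for *Sparc*, and the log2 fold changes were 0.36 (SE 0.23) and 0.31 (SE 0.19). Over the 11 collagens the MS14 mouse exceeded the MS13 Baf155ΔMF mice by a median of 0.57 on the log2 scale, while the MS15 mice exceeded the MS13 Baf155WT mouse by 0.06.

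Of 24 other fibroblast markers tested, 4 were lower at the unadjusted limit (16.7%, against 4.6% of all genes tested) and 0 were higher. The median was -0.07, and it was -0.09 between the MS13 mice alone. *Meox1*, a homeobox factor, had a log2 fold change of -0.53 (SE 0.18). *Hsd11b1*, which regenerates active glucocorticoid, had -0.62 (SE 0.25) and *Islr*, meflin, had -0.48 (SE 0.19). Between the MS13 mice alone the log2 ratios of these 3 genes were -0.37, -0.09 and -0.06. Of 66 other matrix and remodeling genes, 10 were lower (15.2%, against 4.6% of all genes) and 1 was higher (against 3.35% of all genes). Their median was -0.14, and it was -0.15 between the MS13 mice alone. *Thbs1*, thrombospondin-1, which also comes from platelets and macrophages, had the smallest p of the lists read here, at 45.4, 64.9 and 52.9 CPM in Baf155WT mice and 28.1, 38.7 and 35.5 CPM in Baf155ΔMF mice. All Baf155ΔMF mice lay below all Baf155WT mice, with a log2 fold change of -0.68 (SE 0.15, adjusted p = 0.404 in edgeR). Between the MS13 mice alone the log2 ratio of *Thbs1* was -0.44. *Efemp1*, fibulin-3, and *Spon2*, spondin-2, had -0.72 (SE 0.21) and -1.41 (SE 0.43), but -0.23 and 0.12 between the MS13 mice alone. Levels of *Spon2* were low, at 1.8, 6.3 and 5.3 CPM in Baf155WT mice and 2.2, 1.8 and 1.1 CPM in Baf155ΔMF mice.

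The signals that act on fibroblasts were represented by 16 genes of the TGF-β and PDGF pathways. At the unadjusted limit 1 was lower and 1 was higher, against 4.6% and 3.35% of all genes. Their median log2 fold change was 0.03. *Tgfbr2*, the type II receptor, was 66.5, 93.9 and 95.4 CPM in Baf155WT mice and 60.01, 63.4 and 76.8 CPM in Baf155ΔMF mice, with a log2 fold change of -0.36 (SE 0.14, adjusted p = 0.601 in edgeR). The MS13 Baf155WT mouse lay below both MS15 mice and between the MS13 and MS14 Baf155ΔMF mice.

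Exons of 14 of the 40 genes overlap another annotated gene, and the strand setting of the counting is not given in the sources used here. On the opposite strand, *Dpp4* overlaps *Gm13561*, *Pi16* overlaps *AC162182.1*, *Cd34* overlaps *Gm16897*, *Prelp* overlaps *Gm15851*, *Fbn1* overlaps *Gm9913*, *Mfap4* overlaps *Mapk7* and *Timp3* overlaps *Syn3*, and reads from such a pair cannot be told apart if strand was not used. *Pcolce* overlaps *Fbxo24* on its own strand, where strand does not separate them. The 95% intervals of the log2 fold changes had a median width of 0.73, and they included zero for 28 of the 39 genes tested.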

How the data were processed

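The authors deposited 1 table of expected counts (reads assigned to each gene by estimation, not normalized) for TruSeq stranded total RNA libraries. Per the labels, the submitters' processing notes name CASAVA 1.8.2, cutadapt 1.10, Bowtie2 2.2.7, TopHat2 2.1.1, RSEM 1.2.30, limma, mm10 and GRCm38. The annotation and strand setting are not given in the sources used here. Samples were grouped by the labelled genotype. The expected counts were rounded and compared in R 4.3.3 with edgeR 4.0.16 (filterByExpr with a minimum count of 10 and a minimum total of 15, TMM factors of 0.958 to 1.05, quasi-likelihood test, Benjamini-Hochberg adjustment over 12116 genes), a procedure tested on simulated data. The dispersion common to all genes was a biological coefficient of variation of 0.111. The study's text does not name its test for these counts. The fibroblast and matrix genes and the other lists were chosen with earlier results of these data known. Full values are given for genes with an unadjusted p under 0.05, *Pdgfra* and the gene of each role with the highest mean CPM, and up to 3 genes with the smallest p for each other list. Positions and exon lengths come from GENCODE M21. The comparison was repeated with DESeq2 1.42.0, with voom in limma 3.58.1, after other scalings and filters, with a term for the title prefix and without single mice. Limits at 3 counts cover counting error only. With all mice, a p-value sets the difference between genotypes against the spread among 3 mice per genotype. That spread is estimated partly from all genes and includes differences between title prefixes. The values of 1 gene of the other lists are not reported here.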

Additional observations from a re-analysis of the deposited data

How the results depend on the processing

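All 15 alternatives left 0 genes with an adjusted p under 0.05, except the fit without the MS13 Baf155WT mouse, so the range over single mice left out was 0 to 16. Over those fits the genes lower at an unadjusted p under 0.05 numbered 3 to 26 (11 with all mice), the genes higher 0 to 1, and the median log2 fold change was -0.41 to -0.18. The cause was not tested. Leaving out both MS15 mice was a choice made after seeing the data, in which the single Baf155WT mouse is assumed to vary like the others. The median was then 0.0018, with the MS14 Baf155ΔMF mouse kept. DESeq2 and a filter of at least 1 count in all each found 1 gene higher (*Sparc*). Of 585 values of single genes, 528 kept their direction and side of the limit, 16 passed it in the fit without the MS13 Baf155WT mouse and 41 changed sign, in 21 of the 39 genes. *Pi16*, *Dpp4* and *Mfap5* were lower in all 15, from -0.95 to -0.34, -0.75 to -0.30 and -0.66 to -0.36, with an unadjusted p under 0.05 in 14 of 15, the exception being the fit without both MS15 mice. Their adjusted p in edgeR, DESeq2 or voom ranged from 0.00276, 0.0121 and 0.0356 to 0.999. In the fit with the prefix as a covariate, the genotype term rests on the MS13 mice, with 1 Baf155WT mouse. The p-values of that fit counted above thus rest on that mouse. With this covariate, the sign changed for *Pdgfra* (0.087), *Bgn* (-0.14), *Fbn1* (0.032), *Lox* (0.14), *Loxl2* (-0.14), *Sparc* (-0.046), *Tnxb* (-0.12), *Mmp14* (0.31), *Timp3* (-0.20) and *Clec3b* (0.084). Without both MS15 mice it changed for *Pdgfra* (0.14), *Lum* (0.10), *Fbn1* (0.044), *Fbln1* (0.028), *Fbln2* (0.0059), *Lox* (0.18), *Loxl1* (0.16), *Dpt* (0.027), *Mmp2* (0.14), *Mmp14* (0.27), *Timp2* (0.030), *Timp3* (-0.12), *Pcolce* (0.10), *Gsn* (0.028) and *Clec3b* (0.22). With library size only it changed for *Bgn* (-0.027), *Tnxb* (-0.050) and *Timp3* (-0.011), and *Tnxb* also did so with voom (-0.0065) and upper-quartile scaling (-0.0055). Leaving out single mice gave ranges across zero for *Bgn* (-0.20 to 0.18), *Mfap4* (-0.27 to 0.0049), *Eln* (-0.26 to 0.072), *Lox* (-0.24 to 0.073), *Loxl2* (-0.031 to 0.26), *Tnxb* (-0.16 to 0.10) and *Timp3* (-0.039 to 0.13). Scaling by library size only moved the median of all genes to -0.0643 and that of the fibroblast and matrix genes to -0.33. No paired analysis was possible because the numbers in the sample titles are not said to link mice across genotypes.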

Other observations

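At an unadjusted p under 0.05, 4.6% of all genes tested were lower and 3.35% were higher in Baf155ΔMF muscle, and markers of the remaining cells of muscle were read against these shares. Of the tendon cell markers, 1 of 7 was lower at this limit, *Tnc* (tenascin-C), with a log2 fold change of -0.50 (SE 0.18), and the median of the list was -0.10. Schwann cell markers had 0 of 7 past this limit in either direction (median 0.04) and satellite cell markers 0 of 5 (median -0.02). Myofiber genes had 0 of 15 lower and 2 higher, *Myh1* (myosin heavy chain IIx, 0.49 with SE 0.15) and *Myh2* (myosin heavy chain IIa, 0.38 with SE 0.15), with a median of -0.04. An adjusted p under 0.05 in edgeR was reached by 0 genes of these lists.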
